A study of Mus musculus with 12 samples.

Results

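The nuclei described here were adipocyte nuclei of mouse mPRAT that held at least 2 UMIs (unique molecular identifiers, each standing for 1 captured RNA molecule) of Cyp2e1 and none of Ucp1. They were chosen by their own counts. A nucleus was kept with at least 1000 UMIs, of which at most 10% came from mitochondrial genes. It counted as an adipocyte when the summed UMIs of Adipoq, Plin1, Plin4, Lipe, Cidec and Acsl1 reached 3 and exceeded the sum of Flt1, Ptprb, Lama2, Dcn, Mrc1 and Ptprc, genes of vascular, stromal and immune cells. Of 22179 kept mPRAT nuclei, 12398 were adipocytes, and 4195 of these met both conditions on Cyp2e1 and Ucp1. The 4 mPRAT libraries gave 594 members at 1 month, 1234 at 2 months, 1780 at 6 months and 587 at 6 months after cold exposure. The comparators were the 5956 adipocytes of the same libraries with no Cyp2e1 UMI, numbering 1437, 1527, 1649 and 1343 in the same order. Over the 12 libraries of the series, 10589 of 86742 kept nuclei met the same rule.

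The series profiled single nuclei from 4 adipose depots, labelled mPRAT, lPRAT, iBAT and iWAT, with the 10x Genomics 3′ v3.1 chemistry after sorting on the DNA dye 7-AAD. All animals were male C57BL/6J mice on normal chow, with no transgene or deletion named. The 1-, 2- and 6-month mPRAT groups were kept at 22 °C, and the cold group spent 3 days at 4 °C. The sample titles give 6 months for the oldest groups and their descriptions 16 weeks, while 4 and 8 weeks are given for the 1- and 2-month groups. Each age and temperature had 1 library, and the number of animals in a library is not stated. Values between ages or temperatures therefore have no replicate check, and intervals on them cover counting error only. Members and comparators of 1 library share its animals and handling, so they were compared over the 4 libraries, which themselves differ in age or temperature.

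Cyp2e1 encodes a microsomal cytochrome P450 that oxidises ethanol, acetone and small xenobiotics and takes its electrons from the reductase encoded by Por. It is best known from hepatocytes, and it is also expressed in adipocytes. Ucp1 encodes the mitochondrial uncoupling protein through which brown and beige adipocytes make heat. Their thermogenic programme also includes Ppargc1a, Cidea, Dio2 and fatty acid oxidation genes, whereas white adipocytes store triglyceride and secrete hormones such as leptin.

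The values that chose the members were as follows. Cyp2e1 (chr7:140763739-140774987, plus strand, mm10) stood at 1576 CPM, the UMIs of a gene scaled to 1000000 UMIs per class and library, in the members at 1 month, 1716 at 2 months, 1116 at 6 months and 1267 in the cold. Its median per member was 3, 4, 7 and 6 UMIs. Just outside the threshold, Ucp1-zero adipocytes with 1 Cyp2e1 UMI numbered 357, 452, 332 and 88, with 480.2, 422, 173 and 217 CPM. Just inside it, members with 2 UMIs numbered 191, 301, 228 and 84, with 923, 811, 320.2 and 376 CPM. Ucp1 was 0 in the members by construction and 151, 381, 356 and 1041 CPM in the Cyp2e1-zero adipocytes. A further 34, 118, 218 and 108 adipocytes held at least 2 Cyp2e1 UMIs together with Ucp1.

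Adipoq, which encodes adiponectin and is part of the rule, was at 183, 209, 273 and 189.7 CPM in members. It was at 128, 89.2, 143 and 28.5 CPM in Cyp2e1-zero adipocytes and at most 16.3 CPM in the nuclei of vascular, stromal or immune type. The condition that the rule puts on the adipocyte sum was the same for both adipocyte classes. It does not set their order, but it sets both above those nuclei. The label of adipocyte was therefore checked on Pparg, the adipocyte master regulator and not part of the rule. Thinned to 1000 UMIs, 76.8%, 79.0%, 86.5% and 82.6% of members held a Pparg UMI, against 34.5%, 35.2%, 15.3% and 23.7% of the vascular, stromal or immune nuclei. Pparg was at 2498, 2628, 3644 and 3570.1 CPM in members and 2234, 3266, 4227 and 3259.6 CPM in comparators. The classes overlapped, and edgeR's quasi-likelihood test put the log2 difference at 0.01 (SE 0.12, adjusted p = 0.95). At least 2 Cyp2e1 UMIs were found in 25.4%, 38.9%, 47.7% and 30.8% of adipocytes and in 1.41%, 0.683%, 0.884% and 0.348% of 284, 293, 5201 and 574 vascular, stromal or immune nuclei. Those nuclei had a median of 1666 to 2185 UMIs, and all adipocytes 1850 to 6225. After thinning every nucleus to 1000 UMIs, at least 1 Cyp2e1 UMI remained in 29.4%, 41.8%, 32.1% and 23.2% of adipocytes against 6.34%, 3.07%, 5.31% and 2.27% of the other nuclei. The part of free RNA in the members was not tested.

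Some library differences touch the results. Members were deeper than comparators in every library, with median UMIs of 2204.5, 2574, 7427 and 5145 against 1754, 1832, 5309 and 4392. Their median mitochondrial share was lower in all 4 (0.111% to 0.75% against 0.327% to 0.875%), and their share of UMIs from the nuclear RNA Malat1 was higher (3.4% to 6.14% against 2.65% to 4.85%). In the cold library 10619 barcodes reached 1000 UMIs but only 3349 passed the mitochondrial limit, against 10483 of 10683 in the 6-month library at 22 °C. The 6-month library at 22 °C carried lymphocyte RNA: the summed CPM of 8 lymphocyte markers was 222 in members and 397 in comparators there, against 7.11 to 11.5 and 16.4 to 22.0 in the other 3. Pairs of mPRAT libraries shared between 10 and 33 barcodes, at most 0.325% of the smaller library. The part of these differences in the results was not tested, except where values without a library, at matched depth or under a 5% mitochondrial limit are given.

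Members made up 24.0% of mPRAT adipocytes at 1 month (95% exact binomial interval 22.3 to 25.7), 35.5% at 2 months (33.9 to 37.1), 42.5% at 6 months (40.9 to 44.0) and 26.0% in the cold (24.2 to 27.9). The order changed with depth. Thinned to 1000 UMIs a nucleus, the shares were 12.6%, 20.5%, 14.3% and 11.6%, with the 2-month library highest. Over all adipocytes of a library, Cyp2e1 was at 552, 814, 629 and 435 CPM, again highest at 2 months. All 3 measures were lower in the cold than at 22 °C at 6 months, each from 1 library a temperature.

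**Figure D1:**
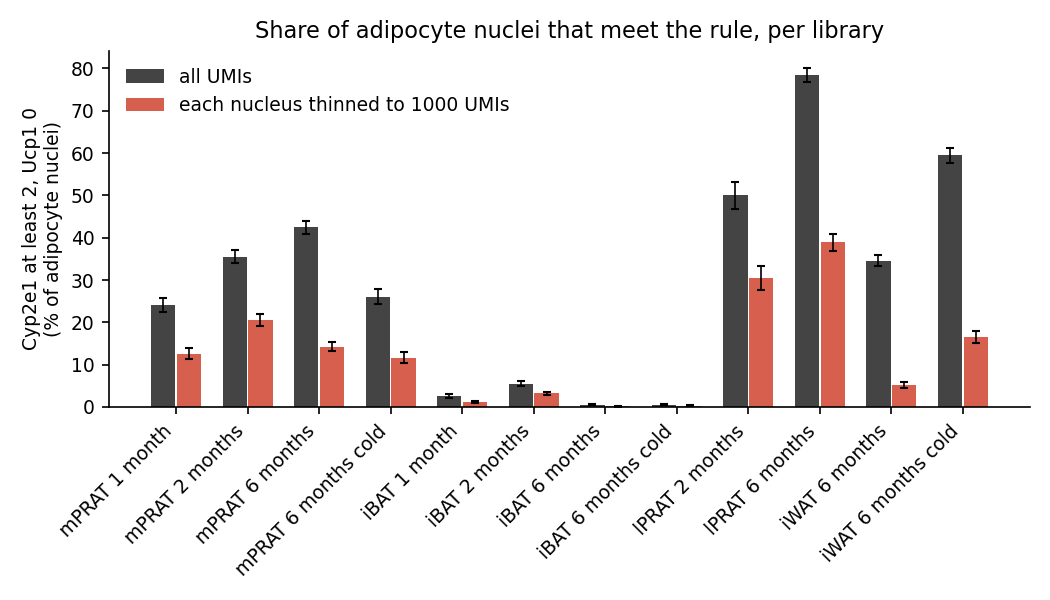
Share of adipocyte nuclei with at least 2 Cyp2e1 UMIs and no Ucp1 UMI (y axis, percent) in each of the 12 libraries (x axis), with all UMIs (grey) and after thinning each nucleus to 1000 UMIs (red). Error bars are 95% exact binomial intervals, which cover counting error only; the mPRAT shares lie between 24.0% and 42.5% with all UMIs and between 11.6% and 20.5% when thinned.

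The share with no Ucp1 UMI was 94.6%, 91.3%, 89.1% and 84.5% of adipocytes with at least 2 Cyp2e1 UMIs, against 82.3%, 65.6%, 53.6% and 15.6% of those with none. Every library showed the higher share on the Cyp2e1-positive side, with the widest gap in the cold. Thinned to 1000 UMIs, the difference averaged 22.6 percentage points (SD 15.4, n = 4 libraries) and ranged from 10.2 to 44.8. Both genes belong to the rule, so these shares describe the choice.

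The transcriptomes of members and Cyp2e1-zero adipocytes differed widely beyond the genes of the rule. UMIs were summed per library and class and tested with edgeR's quasi-likelihood test with the library as a block. Benjamini-Hochberg adjustment ran over 8777 genes. Of these, 24 genes of the rule or mitochondrial genes were then left out of all counts, which left 8753. At an adjusted p under 0.05, 1034 genes were higher in members (11.8% of those tested) and 992 were lower (11.3%). Of these, 1025 and 985 had the same direction in 4 of 4 libraries, and 117 rose and 95 fell by more than 4-fold. Without size scaling between the classes the calls were 823 higher and 1380 lower, which takes the share of higher calls from 51% to 37.4%. The counts also differed by the library left out: 1115 genes were called without the 1-month library, 862 without the 2-month library, 423 without the 6-month library at 22 °C and 1941 without the cold library. Leaving out any of the 4 turned no called gene to the opposite direction among those still measured. Each of these fits reuses the remaining libraries, so this is no independent support. Higher and lower calls were 647 and 468 of 8754 genes without the 1-month library and 487 and 375 of 8777 without the 2-month library. They were 289 and 134 of 8758 without the 6-month library at 22 °C and 1005 and 936 of 8738 without the cold library. Counts of list genes with a library left out, given below, stand beside these shares.

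Among the 12 largest rises was Trhde (chr10:114398823-114802307, minus strand), the ectoenzyme that degrades thyrotropin-releasing hormone. It was at 151, 82.5, 178 and 380.4 CPM in members at 1, 2 and 6 months and in the cold. In comparators it was at 14.1, 6.24, 7.71 and 27.6 CPM, so the classes did not overlap (log2 difference 3.96, SE 0.21, adjusted p = 0.0021). Slc7a10 (chr7:35186385-35201114, plus strand), a neutral amino acid transporter used as a white adipocyte marker, was at 386, 349, 349.7 and 803 CPM against 52.2, 25.7, 40.1 and 45.1 CPM. The lowest member value was more than 6 times the highest comparator value (log2 3.55, SE 0.24, adjusted p = 0.0029).

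Cmklr1, the receptor of the adipokine chemerin, was at 169, 88.9, 149 and 90.2 CPM against 13.8, 6.5, 18.4 and 7.02 CPM (log2 3.55, SE 0.15, adjusted p = 0.0019). Its standard error was the smallest among the 12 genes. Nnat, the imprinted gene of the proteolipid neuronatin, was at 724, 464, 1210.5 and 282 CPM against 98.8, 51, 183 and 7.61 CPM (log2 3.46, SE 0.42, adjusted p = 0.0074). Members were higher in every library, and both classes were lowest in the cold.

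Chst1, a sulfotransferase that acts on keratan sulfate, stayed between 169 and 208 CPM in members and between 7.46 and 31.8 CPM in comparators (log2 3.58, SE 0.36, adjusted p = 0.0049). Opn3, a non-visual opsin, ranged from 18.1 to 31.4 CPM against 0.746 to 3.29 CPM (log2 3.56). Lrrc4c, a netrin-G ligand, ranged from 47.0 to 122 CPM against 1.34 to 20 CPM (log2 3.39).

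The other 5 of the 12 were low or less certain. Gm36860, a lincRNA, ranged from 19.3 to 45.4 CPM in members (log2 4.50, adjusted p = 0.0049). Mageb18 ranged from 18.0 to 166 CPM (log2 4.2), and its call was lost against Ucp1-zero comparators of matched depth (log2 2.08, adjusted p = 0.24). Few nuclei carried it. Without thinning, 3.5%, 1.1%, 5.3% and 2.9% of members held a UMI of it, against 0.49%, 0.13%, 1.4% and 0.30% of comparators. Ofcc1 was at 104 CPM in the cold and at most 21.2 CPM elsewhere (log2 4.13, SE 0.86). Gm15723 (chr10:114801726-114816831, plus strand, log2 4.26) is annotated as antisense to Trhde, whose first bases it overlaps, and Gm29506 (log2 4.15) as overlapping another gene in sense. Whether the counting separated these transcripts from the genes they overlap was not tested.

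**Figure D2:**
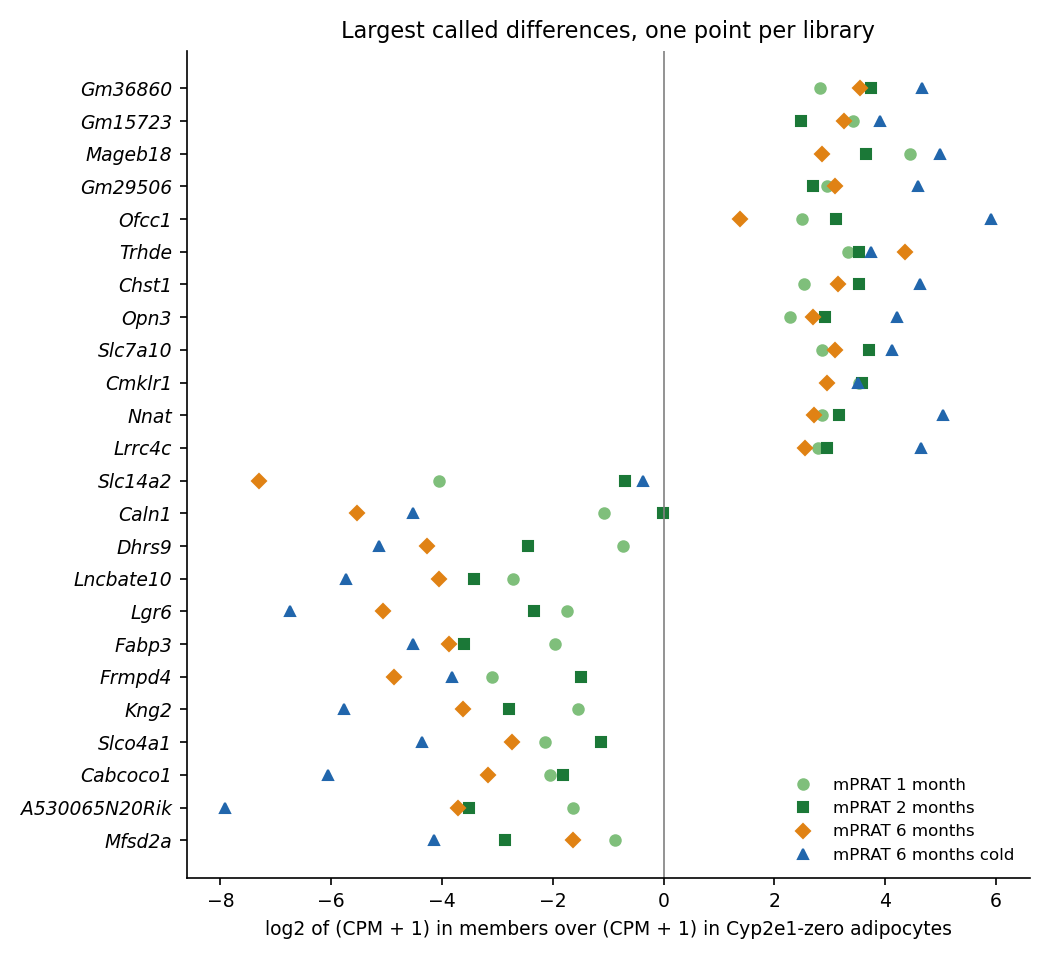
Log2 ratio of CPM plus 1 in members over Cyp2e1-zero adipocytes (x axis) for the 12 genes with the largest called rise and the 12 with the largest called fall (y axis), 1 point per mPRAT library. All 12 rises lie right of 0 in every library; among the falls, the 6-month or the cold library lies furthest left for each gene, and the 2-month point of Caln1 lies at -0.02.

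The deepest falls were mostly strongest in the 6-month and cold libraries. Lncbate10, a lincRNA known from brown fat, was at 4.84, 4.57, 1.42 and 2.00 CPM in members against 37.4, 59.0, 39.2 and 159 CPM in comparators (log2 -4.47, SE 0.47, adjusted p = 0.0056). Fabp3, the fatty acid binding protein of heart and brown fat, was at 4.84, 0.762, 2.13 and 4.57 CPM against 21.7, 20.5, 44.9 and 126 CPM (log2 -4.15, SE 0.39, adjusted p = 0.0048). Neither gene's classes overlapped, and for both the comparators were highest in the cold.

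Dhrs9, a short-chain dehydrogenase of retinol, was at 0, 1.52, 0.517 and 3.42 CPM against 0.656, 12.7, 28.3 and 155 CPM (log2 -5.05, SE 0.44, adjusted p = 0.0045). At 1 month both classes were near the floor. Lgr6, a receptor of R-spondins, was at 19.4, 6.10, 3.17 and 3.14 CPM against 67.3, 34.8, 139 and 441 CPM (log2 -4.25, SE 0.93, adjusted p = 0.028). Its call was lost against depth-matched Ucp1-zero comparators (log2 -2.61, adjusted p = 0.051), and without the 2-month (adjusted p = 0.056) or the 6-month library at 22 °C (adjusted p = 0.11). Kng2 (kininogen), Slco4a1 (an organic anion transporter), Cabcoco1, Mfsd2a (a transporter of lysophosphatidylcholine) and the lincRNA A530065N20Rik fell too. They fell by 3.45 to 3.74 on the log2 scale and were furthest apart in the cold. Slco4a1 and Mfsd2a were at 66.1 and 77.6 CPM in cold comparators and at most 16.7 and 22.9 CPM in those of other libraries. Dhrs9, Slco4a1 and Mfsd2a were too low to test against all Ucp1-zero comparators. With depth-matched Ucp1-zero ones only Dhrs9 of these could be tested (log2 -2.99, adjusted p = 0.0064).

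Slc14a2, a urea transporter, was at 522 and 514 CPM in comparators at 1 and 6 months (log2 -5.15, SE 1.20, adjusted p = 0.033). It was at 5.98 and 0.299 CPM in comparators at 2 months and in the cold. Without thinning, 7.41% of members and 9.67% of comparators held a UMI of it at 1 month, and 1.80% and 1.82% at 6 months. At 6 months the level of Slc14a2 in comparators was thus carried by few nuclei. The difference of Slc14a2 came from 2 libraries. Its call was lost with depth-matched comparators (adjusted p = 0.055) and with depth-matched Ucp1-zero ones (adjusted p = 0.12). It was also lost without the 1-month (adjusted p = 0.098) or the 6-month library at 22 °C (adjusted p = 0.076). Caln1 and Frmpd4 fell by 5.06 and 4.04 on the log2 scale, Caln1 in all but the 2-month library, where it was at 1.27 against 1.30 CPM. At 6 months their comparator levels of 87.9 and 64.4 CPM were carried by few nuclei. Without thinning, 2.43% of comparators held a UMI of Caln1 and 2.43% one of Frmpd4, against 0.730% and 0.843% of members. Of the 12 falls, 5 were still called without the 6-month library at 22 °C, and 11 of the 12 rises were. Without the low-count filter the same numbers, 5 of the falls and 11 of the rises, were called.

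Members carried white adipocyte genes. Of 7 tested genes of a white adipocyte list, 5 were higher and none lower, with a median log2 difference of 2.30 against -0.02 over all genes tested, of which 11.8% were higher and 11.3% lower. Besides Slc7a10 and Nnat these were Retn (resistin), Aldh1a1 and Lep. Aldh1a1 was also found in the vascular, stromal or immune nuclei, in 14.4%, 24.6%, 4.50% and 25.8% of them (thinned to 1000 UMIs). In members the shares were 9.60%, 6.16%, 13.5% and 21.1%. Of 3 tested stromal markers 2 were called higher in members. The stromal list summed to 194 CPM in members against 196 in comparators at 1 month and 182 against 141 at 2 months. It summed to 385 against 153 CPM at 6 months and 198 against 47.0 CPM in the cold. The part of stromal RNA in the difference of Aldh1a1 was not tested. Retn was at 127, 134, 189 and 338 CPM in members against 21.7, 25.2, 32.8 and 20.2 CPM (log2 2.97, SE 0.30, adjusted p = 0.0052). Lep, the leptin gene, was at 58.7, 63.8, 150.5 and 53.9 CPM against 28.5, 11.7, 44.4 and 2.99 CPM (log2 2.29, SE 0.46, adjusted p = 0.022). The lowest member value, from the cold library, lay above the highest comparator value, from 6 months. Npr3 (log2 0.61, adjusted p = 0.41) and Hoxc9 (log2 0.13, adjusted p = 0.67) did not pass, and Sncg, Mest and Tcf21 were too low to test.

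Of 10 tested adipokine genes, which share Lep and Retn with the list above, 6 rose and none fell (median log2 1.69; 11.8% and 11.3% of all genes). Igf1, the insulin-like growth factor, was at 427, 429, 536 and 651 CPM in members against 74.2, 99.6, 75.5 and 53.9 CPM (log2 2.84, SE 0.25, adjusted p = 0.0045). Its lowest member value was over 4 times the highest comparator value. Rbp4, the retinol carrier, ranged from 16.3 to 48.2 CPM against 2.84 to 8.54 CPM (log2 2.70), and Cfd, adipsin, from 167 to 331 CPM against 28.7 to 133 CPM (log2 1.87, adjusted p = 0.029). Nrg4, a growth factor secreted by brown fat, was only slightly higher (2132 to 2449.6 against 1576 to 1989 CPM, log2 0.38, adjusted p = 0.043). Angptl4, Vegfa, Vegfb and Slit2 did not pass. With 3 libraries, 3 of the 10 rose without the 2-month library and 3 without the 6-month library at 22 °C; without the cold library 7 rose and 1 fell.

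Of 14 tested adipocyte identity genes 8 rose and 1 fell (median log2 0.53; 11.8% and 11.3% of all genes). Ghr, the growth hormone receptor, was at 6144, 10140.0, 8959 and 10177 CPM in members against 2134, 2880.0, 2768 and 2839.5 CPM (log2 1.79, SE 0.12, adjusted p = 0.0025). Tshr, the thyrotropin receptor, was at 248, 341, 1142 and 449 CPM against 62.7, 48.6, 158 and 70.8 CPM (log2 2.66, SE 0.18, adjusted p = 0.0028). Neither gene's classes overlapped, and Tshr was highest at 6 months in both. Acvr1c, an activin receptor of fat, was higher by 1.43 on the log2 scale, while Gpd1, the glycerol-3-phosphate dehydrogenase, was the gene of the list that fell (log2 -1.24, adjusted p = 0.019). Without the 6-month library at 22 °C 4 rose and none fell, and without the 2-month library 5 rose and 1 fell.

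The thermogenic programme was lower in members. Ucp1 itself was left out, but the rule kept Ucp1 out of the members only. Of the comparators, 254 of 1437, 526 of 1527, 765 of 1649 and 1134 of 1343 held Ucp1. Falls of genes expressed together with Ucp1 are therefore partly set by the choice of nuclei. Of 17 tested genes, 15 fell and 1 rose, with a median log2 difference of -2.10, where 11.3% of all genes fell and 11.8% rose. Against Ucp1-zero comparators 13 of 16 fell and 1 rose (median log2 -1.28), where 12.1% of all genes fell and 12.8% rose. Ppargc1a, the coactivator of mitochondrial biogenesis, was at 148, 261, 245 and 259 CPM in members against 242, 807, 1057 and 1976 CPM (log2 -1.79, SE 0.36, adjusted p = 0.022). Comparators were higher in each library, most in the cold, whereas members did not pass 261 CPM anywhere. Cidea, a lipid droplet protein of brown fat, was at 359, 339, 156 and 112 CPM against 849, 816, 908 and 839 CPM (log2 -1.92, SE 0.34, adjusted p = 0.016). The 2 classes did not overlap, and members were lower in the oldest libraries.

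Ppara, a nuclear receptor that drives fatty acid oxidation genes, was at 2580.1, 1452, 541 and 473 CPM against 6088, 4929, 3044 and 2306 CPM (log2 -1.87, SE 0.23, adjusted p = 0.0072). Elovl3, the fatty acid elongase of brown fat, had the deepest fall of the list (log2 -3.60), from 153 CPM in cold comparators to 7.13 CPM in cold members. Dio2 (log2 -2.56), Cpt1b (-2.62), Gk (-2.41), Pank1 (-2.38), Esrrg (-2.10) and Prdm16 (-0.94) were lower too. Slc27a2 did not pass (log2 -2.59, adjusted p = 0.093).

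Adrb3, the adrenergic receptor through which cold activates adipocytes, went the other way. It was at 517, 479, 710.1 and 468 CPM in members against 145, 115, 340.5 and 377 CPM (log2 1.38, SE 0.31, adjusted p = 0.029). The difference was smallest in the cold library. Adrb3 is also expressed in white adipocytes of mice. Adrb3 was not called without the 1-month, the 2-month or the 6-month library at 22 °C. Without the last of these, 3 thermogenic genes were called lower, where 134 of all 8758 genes were. Without a low-count filter 6 were lower and none higher, where 1509 of 25279 genes were lower and 1358 higher.

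Genes of fatty acid oxidation and of the respiratory chain moved with the thermogenic genes but by less. Of 16 oxidation genes 12 fell and none rose (median log2 -0.70), beside 11.3% and 11.8% of all genes; against Ucp1-zero comparators 7 fell and 1 rose. Pdk4, a kinase that spares glucose when fat is burned, was at 157, 113, 109.6 and 105 CPM in members against 338, 392, 811 and 879 CPM (log2 -2.16, SE 0.36, adjusted p = 0.014). Hadhb, a subunit of the mitochondrial trifunctional protein, was at 144, 176, 172 and 138 CPM against 324, 363, 535 and 579.9 CPM (log2 -1.41, SE 0.19, adjusted p = 0.0097). Both genes were lower in every library without overlap.

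Of 17 nuclear-encoded respiratory chain genes 15 fell and none rose (median log2 -0.66), beside 11.3% and 11.8% of all genes. Against Ucp1-zero comparators 6 fell and none rose (median log2 -0.39), beside 12.1% and 12.8% of all genes. Ndufv1 of complex I had the largest fall, from 24.2 to 50.3 CPM in comparators to 12.2 to 20 CPM in members (log2 -1.01, SE 0.16, adjusted p = 0.011). Sdha and Ndufa9 did not pass. Without the 6-month library at 22 °C, 2 oxidation genes and 1 respiratory chain gene were called lower, where 134 of all 8758 genes were. The respiratory chain count was 7 without the 1-month library.

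Of 12 tested genes of the P450 system 4 rose and 2 fell, with a median of 0.20, where 11.8% of all tested genes rose and 11.3% fell. Por, the P450 reductase, was at 1465, 1302, 1212 and 910.2 CPM in members against 1059.6, 738, 627 and 507 CPM (log2 0.84, SE 0.12, adjusted p = 0.010). Cyb5a, cytochrome b5, was at 238, 254, 228 and 286 CPM against 157, 159, 113 and 112 CPM (log2 0.98, SE 0.14, adjusted p = 0.0099). Members were above comparators in all 4 libraries for both. Cyp2f2, another P450 of xenobiotics, was at 15.7, 16.8, 38.8 and 93.3 CPM against 3.28, 2.86, 5.14 and 5.67 CPM (log2 3.19, SE 0.31, adjusted p = 0.0048). In members it was lower than Cyp2e1 in CPM, a scale without gene length. The rule chose members for Cyp2e1, so this order partly describes the choice. Pgrmc2 rose by 0.75, and Cyp2d22 (log2 -0.81) and Ephx1, the microsomal epoxide hydrolase (log2 -1.27), fell. Without the 2-month library 3 of the 12 rose and none fell, and without the 6-month library at 22 °C 1 rose and none fell.

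Of 10 tested genes of ethanol and acetate metabolism 4 rose and 1 fell (median log2 0.24), against 11.8% and 11.3% of all tested genes. Without size scaling between the classes 2 rose and 1 fell. Cat, catalase, was at 268, 352, 262 and 481 CPM in members against 224, 267, 220.4 and 245 CPM (log2 0.54, SE 0.14, adjusted p = 0.037). Aldh2, the mitochondrial acetaldehyde dehydrogenase, was at 103, 79.0, 62.8 and 161 CPM against 82.7, 51, 43.3 and 69.0 CPM (log2 0.76, SE 0.15, adjusted p = 0.022). Both were higher in each library, with the widest gap in the cold. Aldh1a7 and Acss3 rose too.

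Acss1, the mitochondrial acetate-activating enzyme, was at 77.4, 46.2, 19.3 and 8.85 CPM in members against 197, 167, 121 and 152 CPM (log2 -2.31, SE 0.43, adjusted p = 0.019). It was the 1 fall of the list, and its call was lost without the 2-month library (adjusted p = 0.052), without the 6-month library at 22 °C (adjusted p = 0.077) and without the low-count filter (adjusted p = 0.14). Acss2, the cytosolic form, did not pass (log2 0.24, adjusted p = 0.20), nor did Adh1, an alcohol dehydrogenase (log2 0.23, adjusted p = 0.39). Of the 10 genes of ethanol and acetate metabolism, 2 rose without the 1-month library, 2 without the 2-month library and 1 without the 6-month library at 22 °C.

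Glutathione and antioxidant genes had no common direction: of 16 tested, 4 rose and 4 fell (median log2 -0.17; 11.8% and 11.3% of all genes). Mgst1, a microsomal glutathione transferase, was at 163, 231, 218 and 259 CPM in members against 92.5, 92.6, 98.1 and 90.0 CPM (log2 1.28, SE 0.13, adjusted p = 0.0048). Gsta3 rose by 1.99, and Gstt1 and Sod1 rose as well. Gsta4 (log2 -1.05), Gpx3, Sod2 and Nfe2l2 fell. Without the 1-month library 2 rose and 2 fell, without the 2-month library 3 and none, and without the 6-month library at 22 °C 1 and none. Of 11 tested retinoid genes 2 rose (Rbp4 and the receptor Rxra, log2 0.87) and 2 fell (Dhrs9 and the receptor Rarb, log2 -1.18), with a median of -0.02, beside 11.8% of all tested genes that rose and 11.3% that fell. With any of the 4 libraries left out, 1 retinoid gene fell.

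Of 18 tested lipogenic genes 4 rose (Me1, Srebf1, Dgat1 and Pnpla3, by 0.43 to 0.73) and 1, the elongase Elovl6, fell (log2 -1.73, adjusted p = 0.024), with a median of 0.16. Over all tested genes 11.8% rose and 11.3% fell. Against Ucp1-zero comparators 7 rose and 2 fell, where 12.8% of all genes rose and 12.1% fell, and at matched depth 9 rose and 2 fell. Fasn, fatty acid synthase, was at 315, 183, 222 and 594 CPM in members and 289, 142, 453 and 777 CPM in comparators and did not pass (log2 -0.17, adjusted p = 0.63). Its sign differed between the younger and the older libraries. Without the 2-month or the 6-month library at 22 °C 1 lipogenic gene rose and none fell. Of 15 tested genes of lipid uptake and storage 6 rose and 5 fell (median log2 0.29), beside the same 11.8% and 11.3% of all genes. The fatty acid transport protein Slc27a1 rose most (627 to 1548 against 352 to 485 CPM, log2 1.37). Cidea, Plin5 (log2 -1.54), Plin2 (log2 -0.92), Vldlr and Cebpb fell. Without the 2-month library 2 of the 15 rose and 2 fell, and without the 6-month library at 22 °C 2 rose and none fell.

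In adrenergic signalling and lipolysis the adenylyl cyclases differed in direction. Of 15 tested genes 4 rose and 2 fell (median log2 -0.27), beside 11.8% and 11.3% of all genes, and against Ucp1-zero comparators 5 rose and 2 fell with a median of 0.13. Adcy5 was at 227, 519, 439 and 151 CPM in members against 48.2, 94.9, 69.4 and 10.0 CPM (log2 2.85, SE 0.27, adjusted p = 0.0048), whereas Adcy3 was at 68.3, 153, 62.8 and 61.6 CPM against 137, 316, 179 and 501 CPM (log2 -1.56, SE 0.36, adjusted p = 0.033). Each held in 4 of 4 libraries. Gnas, which includes the stimulatory G protein subunit, fell by 1.69. The phosphodiesterase Pde3b (log2 0.83), the triglyceride lipase Pnpla2 (log2 0.56) and its activator Abhd5 (log2 0.95) rose. Without the 2-month library 1 of the 15 rose and 1 fell, and without the 6-month library at 22 °C 2 rose and none fell.

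In insulin and glucose metabolism 5 of 17 tested genes rose and 3 fell (median log2 -0.04; 11.8% and 11.3% of all genes). Against Ucp1-zero comparators 8 rose and 3 fell (median log2 0.23), and without size scaling 3 rose and 4 fell. Irs1 and Pik3r1, which relay the insulin signal, rose by 1.02 and 1.31, and Pcx, pyruvate carboxylase, by 0.98. Pkm (log2 -1.87) and Pfkl (log2 -1.33) of glycolysis and Igf1r (log2 -1.07) fell. Slc2a4, the insulin-responsive glucose transporter, did not pass (log2 -0.21, adjusted p = 0.58). In each fit without 1 of the 3 libraries at 22 °C, 3 of the 17 genes rose. Pfkl was not called without the 2-month library (adjusted p = 0.052), and without the 6-month library at 22 °C none of the 17 fell.

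**Figure D3:**
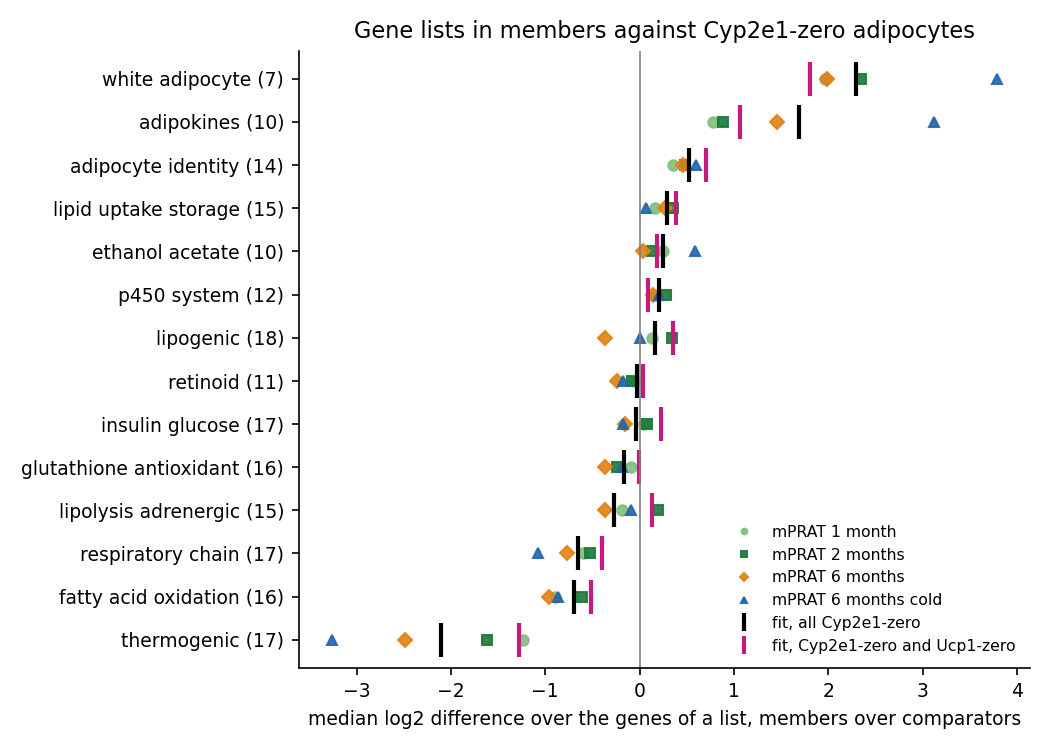
Median log2 difference over the tested genes of each list (x axis; y axis gives the list and its number of genes). Points are single libraries, from CPM plus 1, and bars are the fits against all Cyp2e1-zero adipocytes (black) and against those without Ucp1 (magenta); white adipocyte genes lie at 2.30 and 1.81 and thermogenic genes at -2.10 and -1.28 in these fits.

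Markers of other cell types were counted in the same test. Of 7 stromal markers 3 passed the low-count filter, and Col15a1 (44.2 to 177 against 4.33 to 15.6 CPM, log2 3.32) and Col3a1 (log2 1.80) rose. The third was not called. The stromal list summed to 182 to 385 CPM in members and 47.0 to 196 CPM in comparators. At 1 month the sum was not higher in members (194 against 196 CPM). Of 7 macrophage markers 2 passed and Mertk rose (log2 1.53), with sums of 118 to 160 against 30.9 to 112 CPM, while Adgre1, Csf1r, Cd163, F13a1 and Lyz2 were below the filter, none above 7.57 CPM in members. Mertk was not called without the 1-month, the 2-month or the 6-month library at 22 °C. Mural, lymphocyte, adrenal cortex, epithelial and kidney tubule markers were called lower or not at all: Notch3, Skap1, Hsd3b1, Cyp21a1, Upk1b, Krt19 and Slc5a12 fell and none rose. Kidney tubule markers summed to 158 and 527 CPM in members at 1 and 2 months and to 1.94 and 0 CPM at 6 months and in the cold. Endothelial, Schwann and muscle markers gave no call. The part of RNA from these cells in the results was not tested.

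Since Cyp2e1-zero adipocytes include those with Ucp1, the members were set against the 1183, 1001, 884 and 209 adipocytes that lacked both. In this fit 1140 genes were higher (12.8% of 8929 tested) and 1080 lower (12.1%). Of 8676 genes in both fits, 2001 were called against all comparators and 2104 against the Ucp1-zero ones, and 1579 were called in the same direction in both, which is 78.9% and 75% of these lists. None was called in opposite directions. The fits share the members, so this is no independent support. Marker sums of other cell types also differed. In the cold library adrenal cortex markers summed to 695 CPM in Ucp1-zero comparators against 58.8 CPM in members. Epithelial markers summed to 477 against 192 CPM and Schwann and muscle markers to 409 against 81 CPM there. At 6 months at 22 °C adrenal cortex markers summed to 297 against 16.9 CPM. At 2 months the sums were 474 against 67.6 CPM for Schwann and muscle, 311 against 67.3 CPM for epithelial and 990 against 527 CPM for kidney tubule markers. In this fit 4 of 5 tested adrenal cortex markers, 4 of 4 epithelial markers and the 1 Schwann marker tested were lower in members. The part of this RNA in the result was not tested.

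Differences shrank but kept their direction for most thermogenic genes. Of 16 tested, 13 were lower and 1, Adrb3, higher (median log2 -1.28 against -0.0029 over all genes). Ebf2, a factor of brown fat identity, went from a called fall of 0.53 to 0.02 (adjusted p = 0.98). Respiratory chain genes fell in 6 of 17 cases (median log2 -0.39) and oxidation genes in 7 of 16, with 1 higher (median log2 -0.52). White adipocyte genes rose in 5 of 6 cases (median log2 1.81), Slc7a10 by 2.74 (adjusted p = 0.00059) and Igf1 by 2.09 (adjusted p = 0.00081). At matched depth against all Cyp2e1-zero adipocytes, 1017 genes were higher and 1085 lower.

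Members differed among themselves by their Cyp2e1 UMIs. These values rest on the rule, deeper nuclei hold more UMIs of any gene, and no test was made. The summed CPM of the 18 thermogenic genes in Ucp1-zero adipocytes with 0, 1, 2, 3 to 4 and at least 5 Cyp2e1 UMIs was 13107, 11476, 9353, 7331 and 4895 at 1 month. At 2 months it was 11528, 9432, 7767, 7327 and 4892. At 6 months it was 9158, 7433, 6158, 5199.9 and 3473, and in the cold 6677, 4619, 4062, 3389 and 2587. The sum was lower at every further step in all 4 libraries. White adipocyte genes summed to 336, 599, 957, 1484 and 1983 CPM at 1 month and were higher at each further step there, at 2 months and in the cold. At 6 months the sum went from 2145 to 1873 CPM between 2 and 3 to 4 UMIs. The step of 2 UMIs lay between its neighbours in thermogenic CPM, with no gap at the threshold. Adipocytes with both genes, at least 2 Cyp2e1 UMIs and any Ucp1, held 14271, 15880, 12203 and 11938 thermogenic CPM, above the Ucp1-zero, Cyp2e1-zero nuclei of the same library in each case.

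**Figure D4:**
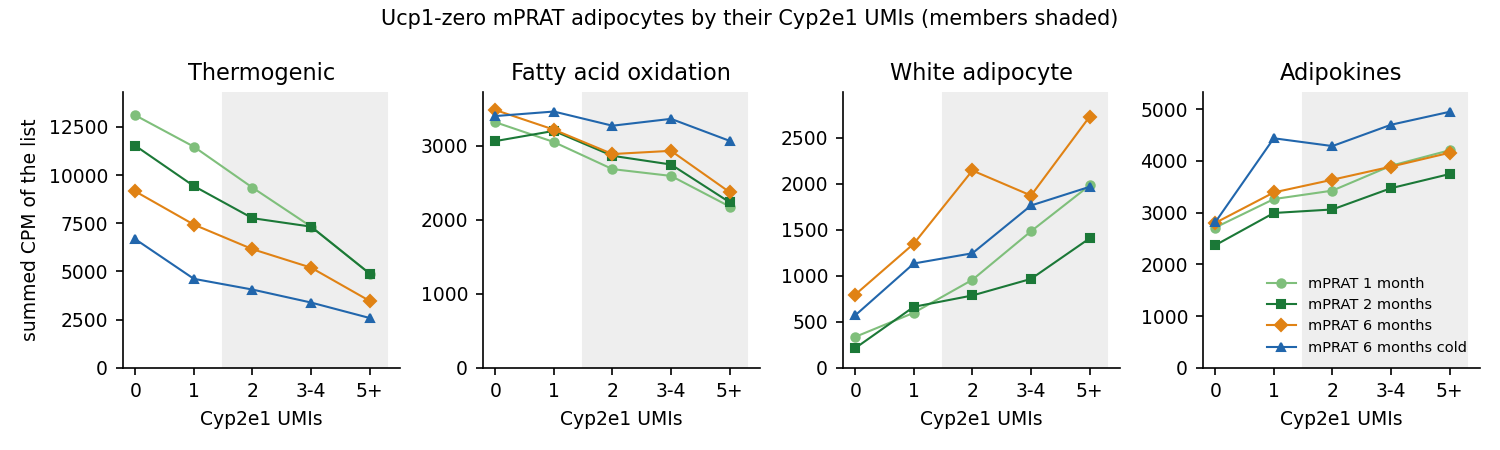
Summed CPM (y axes, from 0) of 4 gene lists in Ucp1-zero mPRAT adipocytes with 0, 1, 2, 3 to 4 or at least 5 Cyp2e1 UMIs (x axes), 1 line per library, members on grey. Thermogenic CPM falls from 13107 to 4895 at 1 month and from 6677 to 2587 in the cold, and white adipocyte and adipokine CPM are highest at the last step in each library.

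Cold was compared within members by ratios of CPM between the 6-month libraries, with exact intervals for counting error and no test. Among 11837 genes measured in members, 543 were over 2-fold higher in the cold (4.59%) and 860 over 2-fold lower (7.27%). Their median log2 ratio was -0.03. In Cyp2e1-zero adipocytes 803 of 12067 genes were over 2-fold higher and 1301 lower, and in those without Ucp1 666 and 888 of 9745. Lipogenic genes had the highest median of the 14 functional lists: 10 of 18 were over 2-fold higher and none lower, with a median of 1.14 (0.91 in Cyp2e1-zero adipocytes, 7 of 18 higher). Elovl6 went from 138 to 761 CPM (log2 2.46) and Acly from 206 to 929.6 CPM (log2 2.18). Scd1, the stearoyl-CoA desaturase, went from 328 to 1053 CPM in members (log2 1.68) and from 418 to 476 CPM in comparators (log2 0.19).

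Thermogenic genes differed less. Of 16 measured in members none was over 2-fold higher and 3 were over 2-fold lower (median log2 -0.30), against 3 higher and 1 lower of 18 in Cyp2e1-zero adipocytes (median 0.40). In Cyp2e1-zero adipocytes without Ucp1, which like the members held no Ucp1 UMI, 2 were higher and 2 lower of 18 (median -0.10). Ppargc1a was at 245 and 259 CPM in members (log2 0.08) and at 1057 and 1976 CPM in comparators (log2 0.90). The rule kept Ucp1 out of the members only. Nuclei with Ucp1 were 765 of 1649 comparators without cold and 1134 of 1343 in the cold. The difference between members and all comparators is therefore partly set by the choice of nuclei. The part of this choice in the ratios of Ppargc1a was not tested. In the white adipocyte list 5 of 9 were over 2-fold lower in members and 1, Slc7a10, over 2-fold higher (median log2 -1.46). In Cyp2e1-zero adipocytes 2 of 7 were lower and none higher (median -0.68). In those without Ucp1, 2 of 6 were lower and 2 higher (median -0.22). Nnat went from 1210.5 to 282 CPM, and Lep from 150.5 to 53.9 CPM.

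Ranked with 10 CPM added, the largest ratio was that of Sptlc3, a subunit of serine palmitoyltransferase. It went from 2.39 to 136 CPM in members (log2 5.83 with nothing added, interval 5.35 to 6.35). In comparators it went from 10.9 to 31.1 CPM (log2 1.51), in those without Ucp1 from 9.60 to 77.6 CPM (log2 3.01) and in vascular, stromal or immune nuclei from 1.34 to 13.6 CPM. Acaa1b, a peroxisomal thiolase, went from 17.8 to 237 CPM in members, from 34 to 132 CPM in comparators and from 33.4 to 188 CPM in those without Ucp1. Ankfn1, with 7.44 and 151 CPM in members, 38.6 and 220 CPM in comparators and 72.2 and 839.6 CPM in those without Ucp1, was the only other of the 8 whose cold level in the non-adipocyte nuclei (66.1 CPM) was below that in members. Gstm1, S100a6, Tmprss2, Sprr1a and Sh3gl2 were the remaining 5, and their cold levels in those nuclei (144 to 609 CPM) exceeded those in members (105 to 286 CPM). Epithelial markers were over 2-fold higher in the cold in 5 of 5 measured cases in both classes.

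In the other direction Ntrk3, a neurotrophin receptor, ranked first with 10 CPM added. It went from 908 to 37.7 CPM in members (log2 -4.59 with nothing added, interval -4.85 to -4.34). In comparators it went from 3851 to 565 CPM (3131 to 216 CPM in those without Ucp1). With nothing added, Cacna1e (log2 -6.63) and Bank1 (log2 -5.57) had larger ratios in members. Gm31522, from 156 to 8.85 CPM, and Gm4876, from 464 to 68.8 CPM, were higher in members than in comparators at both temperatures. Bank1, Arhgap15, Aff3 and Dock2 are genes of lymphocytes and other leukocytes, at 2294 to 4049 CPM in the non-adipocyte nuclei of the 22 °C library, and with Cacna1e (306 CPM there) they made up the other 5 of the 8.

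Age was compared in the same way. Among 11596 genes measured in members, 944 were over 2-fold higher at 6 months than at 1 month (8.14%) and 709 over 2-fold lower (6.11%). Their median log2 ratio was 0.04. In Cyp2e1-zero adipocytes 813 of 11628 genes were over 2-fold higher and 578 lower, and in those without Ucp1 865 and 377 of 10379. Of 16 thermogenic genes 2 were over 2-fold higher and 8 over 2-fold lower in members (median log2 -0.76), against 5 higher and none lower of 18 in Cyp2e1-zero adipocytes (median 0.63). In those without Ucp1, 4 were higher and 1 lower of 17 (median -0.10). From 1 to 6 months median depth went from 2204.5 to 7427 UMIs in members and from 1744 to 4645.5 UMIs in comparators without Ucp1. Holding no Ucp1 UMI is thus a stricter condition at 6 months. The part of depth in these ratios was not tested. Ppara went from 2580.1 to 541 CPM in members, and Cidea from 359 to 156 CPM. In the white adipocyte list 4 of 9 were over 2-fold higher and none lower in members (median log2 0.74). In Cyp2e1-zero adipocytes 1 of 7 was higher and none lower (median 0.62). In those without Ucp1, 5 of 7 were higher and none lower (median 1.17), so this rise was not particular to members. From 1 to 2 months 3 of 15 thermogenic genes were over 2-fold higher and 1 lower in members (median log2 0.0051), and none of 7 white adipocyte genes passed 2-fold (median log2 -0.15).

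Erbb4, the receptor of neuregulins such as Nrg4, went from 219.5 CPM at 1 month to 1942 CPM at 6 months in members (log2 3.15, interval 3.00 to 3.30) and from 217 to 1279 CPM in comparators. Dtna (10.3 to 148 CPM) and Rasgrf2 (11.5 to 156 CPM) went up in members by 3.84 and 3.76 on the log2 scale and in comparators by 0.76 and 0.74, or by 1.20 and 1.25 in those without Ucp1. Adamts5 and Gm4876 also belonged to the 8 largest ratios. Bank1, Dock2 and Arhgap15 completed them, and 8 of 8 lymphocyte markers were over 2-fold higher in both classes at 6 months. Bank1 had no UMI in members at 1 month.

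Among the 8 largest ratios in the other direction, Ano1, a chloride channel, went from 128 to 11.7 CPM in members (log2 -3.45) and from 196 to 66.9 CPM in comparators (log2 -1.55). Frmd4b went from 116 to 11.1 CPM in members and from 730.5 to 234 CPM in the non-adipocyte nuclei. Ankfn1, which was higher in the cold, went from 88.9 to 7.44 CPM. Slc34a1, the phosphate transporter of kidney tubules, went from 86.5 to 0.259 CPM, beside the kidney marker sums above. Cmss1, Gm42418, Gm26917 and Gm48099 were lower at 6 months in both classes and in the non-adipocyte nuclei as well. Gm42418 overlaps ribosomal RNA sequence and took 31917 CPM in members at 1 month.

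Between 1 and 2 months, both at 22 °C, 306 of 8689 genes measured in members were over 2-fold higher at 2 months (3.52%) and 232 over 2-fold lower (2.67%), with a median log2 ratio of -0.05. By the mean of per-nucleus CPM 196 were higher, and with TMM scaling 132 were lower. Ranked with 10 CPM added, Fut9, a fucosyltransferase, came first. It was at 42.3 and 402 CPM in members (log2 3.25 with nothing added, interval 2.90 to 3.61) and 80.4 and 455 CPM in comparators. With nothing added, Slc5a12 (log2 4.14), Dio2 (3.70), Kcnj15 (3.60) and Nox4 (3.47) had larger ratios in members. Dio2, which makes active thyroid hormone in brown fat, went from 4.84 to 62.7 CPM in members and from 10.8 to 218 CPM in comparators. Gk, glycerol kinase, went from 42.9 to 259 CPM and from 133 to 801 CPM. Kcnj15, Nox4, Dab2, Acsm2 and Slc5a12, the last a kidney tubule marker that went from 3.63 to 64 CPM in members, completed the 8 largest ratios. The kidney tubule markers summed to 158 and 527 CPM in the members of these libraries and to 1.94 CPM at 6 months, where Fut9 was at 1.75 CPM and Acsm2 at 0.194 CPM. The part of kidney RNA in these ratios was not tested. In the other direction, with 10 CPM added, A530065N20Rik (153 to 10.9 CPM) and Mageb18 (107 to 18 CPM) had the largest ratios in members. They were followed by Impdh1, Coq8a, Gdpd5, AC149090.1, Slc14a2 and Csmd1. With nothing added, Slc14a2 (log2 -3.20), Impdh1 (-2.85) and Csmd1 (-2.60) had larger ratios than Mageb18 (-2.57).

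The rule was applied to the other depots for comparison, with 1 library per condition and no test. It was met by 2.55% and 5.54% of iBAT adipocytes at 1 and 2 months, 0.497% at 6 months and 0.571% in the cold, that is 158, 463, 84 and 63 nuclei. It was met by 50% and 78.5% of lPRAT adipocytes at 2 and 6 months and by 34.6% and 59.4% of iWAT adipocytes at 22 °C and in the cold. Over all adipocytes, Cyp2e1 was at 91.5, 215, 10.3 and 11.6 CPM in iBAT at 1, 2 and 6 months and in the cold, 1115 and 1402 CPM in lPRAT, and 233 and 685 CPM in iWAT. The mPRAT levels of 435 to 814 CPM lay between those of iBAT and lPRAT.

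All 12 genes named as higher in mPRAT members were also higher in the few Cyp2e1-positive Ucp1-zero nuclei of each iBAT library. The median log2 ratio was 4.26 at 1 month, 4.67 at 2 months, 5.09 at 6 months and 4.95 in the cold. Of the 12 genes named as lower, 10 or 11 were lower there. In lPRAT and in iWAT at 22 °C, where the 17 tested thermogenic genes summed to 1341 to 1947 CPM in Cyp2e1-zero adipocytes, 9 or 10 of the 12 were higher by a median log2 of 0.19 to 0.35. In cold iWAT 12 of 12 were higher by a median of 0.46, and the thermogenic list had a median of -2.08. The medians of the same 12 genes in mPRAT were 2.86, 3.34, 3.02 and 4.61. Their summed level in Cyp2e1-zero adipocytes was 4139 and 4652 CPM in lPRAT, 3347 in iWAT, 2132 in cold iWAT and 31.07 to 144 in iBAT. In mPRAT members it was 1308 to 2464 CPM. Of the genes named as lower, 6 were lower and 6 higher in iWAT at 22 °C. In lPRAT 6 were lower and 1 higher at 2 months, and 4 lower and 7 higher at 6 months. In cold iWAT 12 of 12 were lower (median log2 -2.895).

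**Figure D5:**
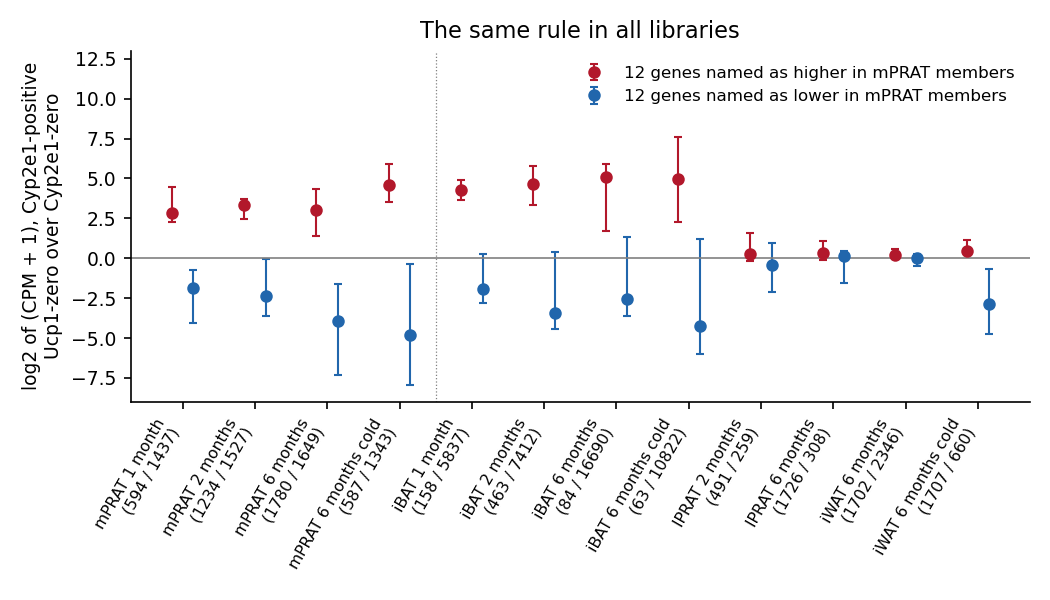
Log2 ratio of CPM plus 1 in Cyp2e1-positive Ucp1-zero over Cyp2e1-zero adipocytes (y axis) for the 12 genes named as higher (red) and the 12 named as lower (blue) in mPRAT members, in each library (x axis, with the numbers of nuclei in the 2 classes). Points are medians and lines run from the lowest to the highest gene; red medians are 2.86 to 4.61 in mPRAT, 4.26 to 5.09 in iBAT and 0.19 to 0.46 in lPRAT and iWAT.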

How the data were processed

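The authors deposited 1 matrix of raw UMI counts per library, written by Cell Ranger 7.0.0 per the file headers and aligned to mm10 per the submitters' processing notes. Whether intronic reads were counted is not given in the sources used here. The members and gene lists were chosen with earlier results of these data known. Nuclei were kept with at least 1000 UMIs and at most 10% mitochondrial UMIs, giving 22179 in the 4 mPRAT libraries, whose deposited barcodes hold 11565118 to 77838918 UMIs. Each class was summed per library to CPM. The 8 sums were tested with edgeR 4.0.16 (R 4.3.3; quasi-likelihood, TMM scaling, library as a block, 3 residual degrees of freedom) over genes with a mean of at least 10 CPM and at least 100 UMIs. The 14 genes of the rule and mitochondrial genes stayed in the fit and its adjustment where they passed this filter. They were left out of the counts of calls and of the named genes. On simulated counts for 8777 genes, 100 changes of 2-fold and 100 of 4-fold were planted between the 2 classes. Of these, 93% and 100% were recovered, with 12 false calls. The simulation gave every gene the same dispersion, the spread beyond counting error. Real genes differed in spread, so these rates need not hold for the real counts.

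Genes were named by a fixed rule: the 12 largest called rises and falls with 1 direction in 4 of 4 libraries and at least 20 CPM in the higher class; in each list, its largest and smallest fold and exceptions; and for cold and age the 8 largest ratios each way after adding 10 CPM, with at least 50 UMIs. Other list genes given with values were picked from the lists after their values were seen. Genes named for position follow GENCODE vM21 on mm10. Doublets were kept. Scrublet's own threshold marked 0, 3, 548 and 5 nuclei, too few in 3 libraries to be used, and an alternative removed the highest scores at 0.8% per 1000 nuclei. Other alternatives were Ucp1-zero or depth-matched comparators, DESeq2 1.42.0, no TMM, no filter, other thresholds and leaving out each library. Intervals are 95% exact ones and cover counting error only.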

Additional observations from a re-analysis of the deposited data

Results flagged for a closer look

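In the groups of 4 libraries, 44 values were checked for a library that stood apart, and 3 did; chance flags about 1 in 20. The log2 difference of Cmklr1 between members and Cyp2e1-zero adipocytes was 2.95 at 6 months, below the narrow range of 3.51 to 3.58 in the other 3 libraries. The median log2 difference of the stromal markers was 2.75 in the cold library, above the other 3. That of the lymphocyte markers was 0.00 in the cold library, where most of them were at or near 0 in both classes.

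For thermogenic genes the list medians of members and of all Cyp2e1-zero adipocytes had opposite signs between libraries. From 22 °C to cold at 6 months the median log2 ratio was -0.30 in members and 0.40 in Cyp2e1-zero adipocytes. From 1 to 6 months it was -0.76 in members and 0.63 in Cyp2e1-zero adipocytes. In Cyp2e1-zero adipocytes without Ucp1 the medians were -0.10 and -0.10, so the opposite sign was not seen against that class. These differences were not tested, since each condition had 1 library. Holding no Ucp1 UMI is also a stricter condition in a deeper library.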

How the results depend on the processing

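With 1 library left out, genes called numbered 423 to 1941 (2026 with all 4), of which 289 to 1005 were higher and 134 to 936 lower. The median log2 of insulin and glucose genes then ranged from -0.051 to 0.095. Without a low-count filter 1509 genes were lower. Against Ucp1-zero comparators the list medians were 0.086 for the P450 system, -0.0062 for glutathione genes, 0.13 for lipolysis (reversed from -0.27), -0.52 for fatty acid oxidation, -0.39 for the respiratory chain, 0.23 for insulin and glucose and 0.71 for adipocyte identity, and Ebf2 was at 0.017. The retinoid median was 0.081 with depth-matched comparators, and Agpat2, not called in the main test, was at 0.26 (adjusted p = 0.040) against matched Ucp1-zero ones. The cause was not tested. Among calls still measured, 1999 of 2001 kept their direction against Ucp1-zero comparators and 1996 of 2000 against matched ones. All kept it under DESeq2, no TMM, no filter, a threshold of 3 Cyp2e1 UMIs, removal of doublets, a 5% mitochondrial limit and depth matching alone. Member shares at 1, 2 and 6 months and in the cold were 12.6%, 20.5%, 14.3% and 11.6% when thinned, 38.4%, 48.5%, 50.4% and 29.9% from 1 Cyp2e1 UMI, and 16.3%, 26.9%, 37.0% and 22.3% from 3. With a minimum of 2000 UMIs they were 32.8%, 44.6% and 44.1% at 1, 2 and 6 months. From 1 to 2 months, 306 genes were over 2-fold higher and 232 lower in members, against 196 higher by the mean of per-nucleus CPM and 132 lower with TMM. Of the named gene ratios between libraries, 25 moved beyond their counting interval by the mean of per-nucleus CPM (38 did not) and 16 without doublets (47 did not). No paired analysis was possible between ages or temperatures because each had 1 library; the 2 classes of a library were paired in the test by the library block. Depth limits genes near 10 CPM.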
